A study of Zea mays with 20 samples.

Results

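5 of the 20 libraries of this maize series came from inflorescence primordia of plants homozygous for kn1-e1, a loss-of-function allele of knotted1. They were the 3 tassel and the 2 ear libraries of that genotype, taken by their columns in the count table, and the question here is which genes differ between tassel and ear when kn1 is reduced. All plants were of the inbred B73 and grew in the field. Each mutant tassel library pooled 10 primordia of 2 to 3 mm, and each mutant ear library pooled 6 to 8 primordia of 4 to 5 mm. The libraries used for comparison came from siblings of the mutants, as 3 tassel libraries (10 primordia of 4 to 5.5 mm each) and 2 ear libraries (6 to 8 primordia of 7 to 8 mm each). The siblings carry the genotype label kn1-e1/+, their titles say wild type, and the series design names heterozygotes or wild-type plants, so the comparison is with plants that may hold a copy of the mutant allele. In both genotypes the ears were longer than the tassels, and organ, length and developmental stage cannot be told apart. In both organs the mutant primordia were shorter than those of siblings, so genotype, length and developmental stage cannot be told apart either. The other 10 libraries of the series (leaf and shoot apical meristem) were not used here.

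Maize bears its male and female flowers apart. The tassel at the top of the shoot makes long branches and staminate florets, whereas the ear, on a side shoot, has no long branches and keeps its pistils. Both start from an inflorescence meristem that makes spikelet pair, spikelet and floral meristems in turn, and sex is set later, by loss of pistils in the tassel and arrest of stamens in the ear. The product of kn1 is a homeodomain transcription factor of the KNOX class that is made in shoot meristems and helps to keep them, and loss of its function is known to give small tassels and ears with few branches and spikelets. In a pool of whole primordia, fewer cells of a type and less RNA per cell cannot be told apart.

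The 5 mutant libraries held 17602429 to 20722952 counts, and the 5 sibling libraries 16584659 to 19433572. Of 39656 genes in the table, 21999 passed the filter on low counts over the 10 libraries. Levels are given as CPM, each count scaled by its library's total and TMM factor, one value per library in the order of the replicate numbers. Differences are log2 values of tassel minus ear ± SE, with Benjamini-Hochberg adjusted p-values of edgeR's quasi-likelihood test over all genes tested, and a gene was called at an adjusted p under 0.05. Gene names are those that the RefSeq gene table pairs with the IDs.

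The kn1 transcript itself (GRMZM2G017087) was read at 42.3, 37.7 and 58.6 CPM in the mutant tassels and at 33.7 and 33.6 CPM in the mutant ears. In siblings it was read at 187, 211 and 206 CPM in tassels and 128 and 138 CPM in ears, so every mutant library lay below every sibling library of either organ. Tassels were above ears in both genotypes. The tassel-ear difference was 0.46 ± 0.13 in mutants (edgeR adjusted p = 0.0108) and 0.60 ± 0.11 in siblings (edgeR adjusted p = 0.000472), and these 2 differences were not distinguishable (-0.14 ± 0.17, edgeR adjusted p = 0.672). The size of the mutant difference leaned on the third tassel library, without which it was 0.25, and without the first ear library it no longer passed (0.47, edgeR adjusted p = 0.0511).

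Tassel and ear primordia of the mutant differed in a large share of the transcriptome. Of the genes tested, 8850 (40.2%) were called, 4478 (20.4%) higher in tassel and 4372 (19.9%) higher in ear. Most differences were small, with a median absolute log2 difference of 0.41 among the calls; 861 genes (3.91%) were called and at least 2-fold higher in tassel and 959 (4.36%) at least 2-fold higher in ear. In siblings 9825 genes (44.7%) were called, 4812 (21.9%) higher in tassel and 5013 (22.8%) higher in ear. The mutant and the sibling comparisons share no library. Called in both with the same direction were 5765 genes, which is 65.1% of the mutant calls and 58.7% of the sibling calls. Across genes the 2 sets of log2 differences had a Pearson r of 0.788 and a Spearman rho of 0.679 (21999 genes, a description, since genes are not independent). Opposite directions were called for 162 genes. The shares of 20.4% and 19.9% over all genes are the background for the mutant counts by list below. Lists hold only genes with a name, of which 1092 of 2062 tested were called in mutants, a larger share than over all genes.

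**Figure D1:**
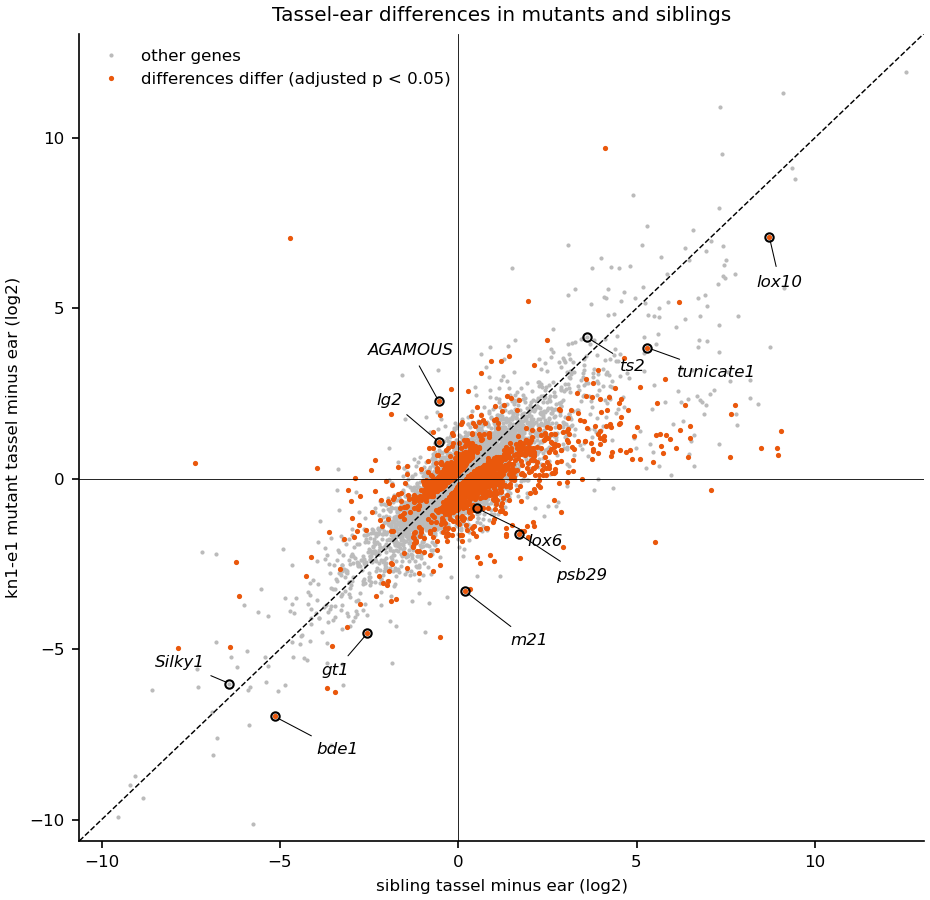
Log2 tassel minus ear difference of each of the 21999 genes tested in siblings (x axis) and in kn1-e1 mutants (y axis). Orange points are the 2378 genes whose mutant and sibling differences differed (edgeR adjusted p under 0.05), grey points all other genes, and the dashed line marks equal differences. Most genes lie along the line, whereas AGAMOUS and lg2 lie above 0 in mutants and below 0 in siblings, and psb29 and lox6 the reverse.

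The difference of the tassel-ear differences between genotypes was called for 2378 genes (10.8%), of which 1298 (5.9%) were above 0, that is, more tassel-biased in mutants, and 1080 (4.91%) below 0. This count leaned on single ear libraries: it was 1219 without the first mutant ear library, 1116 and 982 without the first and the second sibling ear library, and 1615 to 2664 without each of the others. The share above 0, 54.6%, fell to 38.4% where scaling used library totals alone. Of the 2923 genes called in mutants and not in siblings, 680 also had a called difference between genotypes, and of the 3898 called in siblings and not in mutants, 848 did. For the remaining genes on those 2 lists a difference between genotypes was not shown. Since the mutant primordia were the shorter in both organs, a difference between genotypes cannot be told apart from one of length or stage.

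MADS-box genes, which include the floral organ identity genes, differed steeply and in both directions. Of the 32 MADS-box genes tested, 16 were higher in the mutant ear and 10 in the mutant tassel, with a median of -0.84, beside a median of -0.00 over all genes. The members named first are ear-biased ones. The transcript of bde1 (GRMZM2G160565), bearded-ear, which is needed for floral meristem fate, was read at 0.225, 0.114 and 0.204 CPM in tassels and 24.1 and 23.3 CPM in ears (log2 -6.97 ± 0.24, edgeR adjusted p = 1.74e-11). Reads of Silky1 (GRMZM2G139073), the B-class gene of stamens and lodicules, amounted to 0.394, 0.0568 and 0.102 CPM in tassels and 12 and 12.3 CPM in ears (log2 -6.01 ± 0.25, edgeR adjusted p = 1.08e-10). All 3 tassel libraries were near 0 for both genes, and the ear libraries agreed closely. The SEPALLATA-clade genes zmm6 (GRMZM2G159397) and zmm27 (GRMZM2G129034) lay at 0, 0.0568 and 0.153 against 12.2 and 11.4 CPM and at 0.845, 0.284 and 0.408 against 16.2 and 15.6 CPM. With 4 counts in the 3 tassel libraries and 487 in the ears, zmm6 gave a ratio of 162 with an exact 95% interval of 63.0 to 598. The log2 difference of zmm27 was -4.94 ± 0.19 (edgeR adjusted p = 4.78e-11). MADS7 (GRMZM2G099522) was also higher in ears (log2 -5.27 ± 0.21, edgeR adjusted p = 5.35e-11).

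Some floral MADS-box genes were so rare in mutant tassels that a fitted fold change has no meaning. MADS4 (GRMZM2G097059) had 1 count in the 3 mutant tassel libraries together and 428 counts in the 2 ear libraries, a ratio of 571 with an exact 95% interval of 102 to 22600. ZAG5 (GRMZM2G003514) had 0 counts in the mutant tassels and 306 in the mutant ears, which makes the ears at least 136-fold higher, taking 3 counts over the tassel group as the floor. Both intervals and floors cover counting error only. The sibling tassels held these transcripts at 0, 0.107 and 0.0529 CPM (MADS4) and 0.434, 0.214 and 0 CPM (ZAG5), also far below the sibling ears at 34.2 and 30.3 and 12.7 and 11 CPM.

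Of 5 silk and carpel genes tested, 3 were higher in the mutant tassel and 2 in the mutant ear, with a median of 1.32. The 2 in ear were ZAG1 (GRMZM2G052890), a C-class gene of floral meristem termination, and zag2 (GRMZM2G160687), a gene of developing carpels and ovules. Both were read at low level. ZAG1 lay at 0.113, 0.171 and 0.102 CPM in mutant tassels and 4.68 and 3.73 CPM in mutant ears, and zag2 at 0.282, 0.0568 and 0.153 and 1.87 and 1.81 CPM. In sibling ears they reached 19.7 and 16.6 and 14.9 and 11.6 CPM, several times the level in mutant ears. The ear bias was -4.98 ± 0.30 (edgeR adjusted p = 7.58e-09) for ZAG1 and -3.44 ± 0.40 (edgeR adjusted p = 6.84e-06) for zag2. It was larger in siblings, at -7.86 ± 0.26 and -6.16 ± 0.28 (for ZAG1 from 4 counts in the sibling tassels, a ratio of 252 with an exact 95% interval of 97.9 to 928). The difference between genotypes passed for each (edgeR adjusted p = 0.0263 and 0.0278). Each call was lost in 6 of the 10 fits that left out 1 library.

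Other MADS-box genes pointed to the tassel. The transcript of tunicate1 (GRMZM2G370777), whose ectopic expression gives pod corn with leafy glumes, was read at 59.2, 52.4 and 52.8 CPM in mutant tassels and at 4.22 and 3.38 CPM in mutant ears (log2 3.84 ± 0.10, edgeR adjusted p = 6.46e-13). MADS34 (GRMZM2G137510) was read at 26.7, 30.3 and 28.4 CPM in tassels and 1.55 and 2.17 CPM in ears (log2 3.94 ± 0.16, edgeR adjusted p = 6.54e-11). The gene listed as AGAMOUS (GRMZM2G359952) was tassel-biased in mutants, with 6.36, 6.48 and 6.02 against 1.41 and 1.16 CPM (log2 2.28 ± 0.18, edgeR adjusted p = 1.37e-07). Its siblings were ear-biased, with 2.71, 3.11 and 2.33 CPM in tassels and 3.92 and 4.03 CPM in ears (log2 -0.55 ± 0.17, edgeR adjusted p = 0.0147). The difference between the 2 was 2.83 ± 0.25 (edgeR adjusted p = 1.3e-05), with mutant tassels the highest and mutant ears the lowest of the 4 groups. Among B-class genes zmm16 (GRMZM2G110153), a PISTILLATA homologue, was ear-biased in both genotypes, but with a log2 difference of -0.61 ± 0.08 in mutants (19.1, 17.2 and 18.1 against 29 and 26.2 CPM) and of -1.82 ± 0.07 in siblings (18.3, 20.8 and 19.4 against 71.6 and 66.2 CPM). Here the tassels of the genotypes were alike and the sibling ears stood apart.

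**Figure D2:**
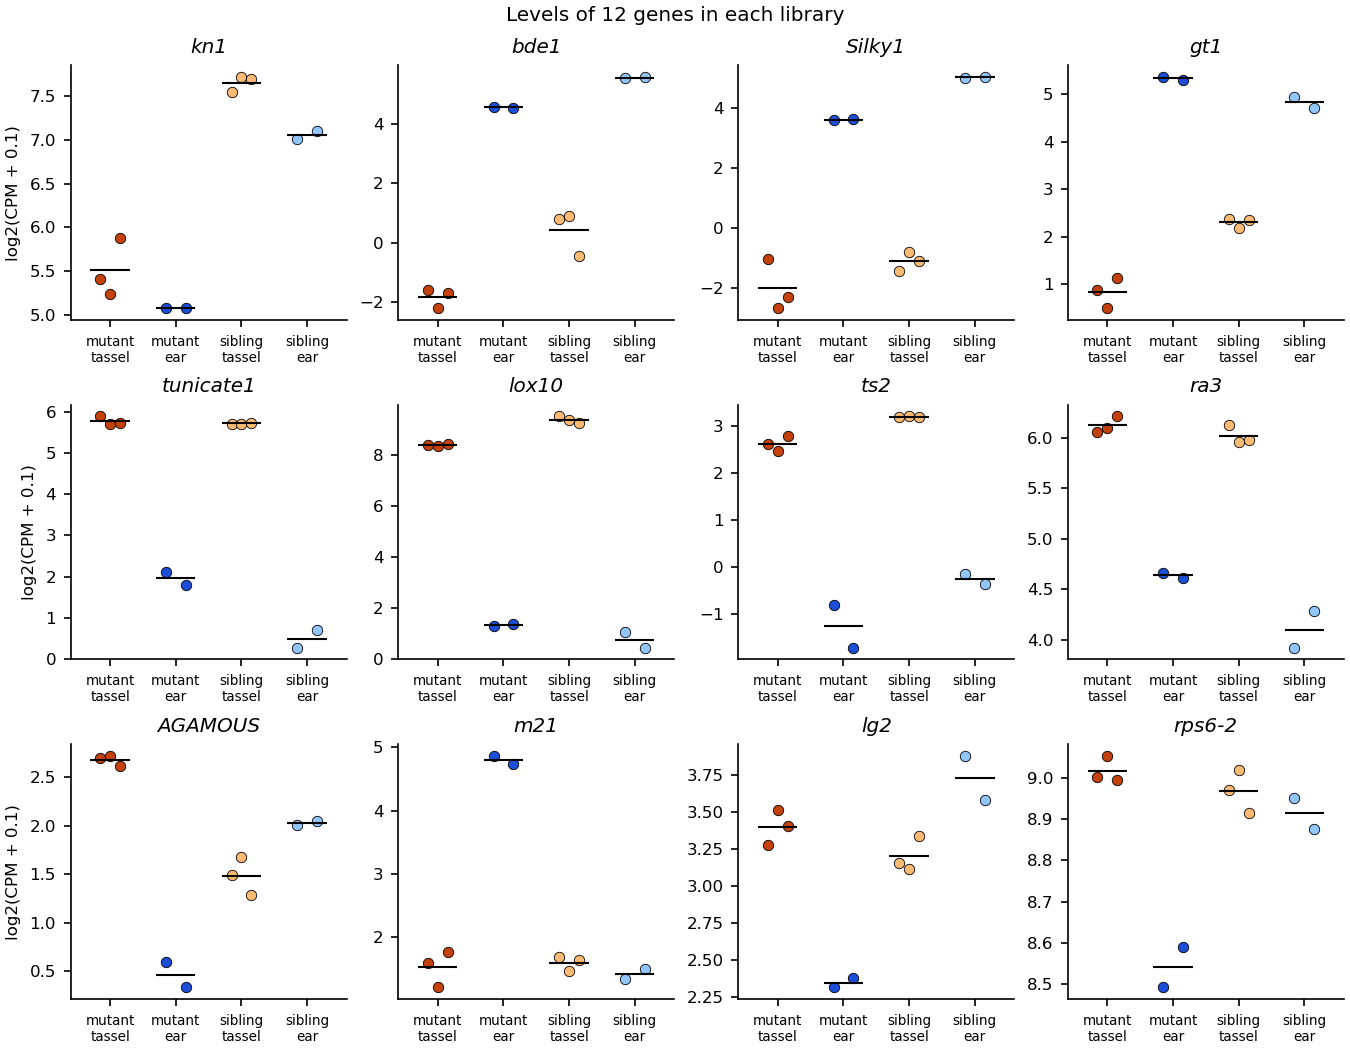
Levels of 12 genes in each library, as log2(CPM + 0.1), with mutant tassels, mutant ears, sibling tassels and sibling ears side by side. Each point is 1 library and each bar the group mean of the plotted values. The ear bias of bde1, Silky1 and gt1 and the tassel bias of tunicate1, lox10 and ts2 are seen in both genotypes. AGAMOUS and lg2 change their order between genotypes, and m21 is high in the mutant ears alone.

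Genes of sex determination were nearly all organ-biased in mutants: 7 of the 14 tested were higher in tassel and 6 higher in ear. That is 13 of 14 called, beside 40.2% of all genes tested and 1092 of the 2062 tested genes with a name. The tasselseed gene ts2 (GRMZM2G455809), a short-chain dehydrogenase needed for pistil loss in the tassel, lay at 6.08, 5.46 and 6.78 CPM in mutant tassels and 0.468 and 0.202 CPM in mutant ears. That is a log2 difference of 4.15 ± 0.25 (edgeR adjusted p = 7.34e-09), beside 3.61 ± 0.21 in siblings. Another tasselseed gene, ts1 (GRMZM2G104843), a lipoxygenase of jasmonate synthesis that was picked after its values were seen, had 0.97 ± 0.16 (edgeR adjusted p = 0.000236). In the other direction lay gt1 (GRMZM2G005624), a homeodomain leucine zipper gene that represses carpels in the tassel and axillary bud growth. It was read at 1.75, 1.31 and 2.09 CPM in mutant tassels and 41.2 and 39.5 CPM in mutant ears, with no overlap and a log2 difference of -4.54 ± 0.13 (edgeR adjusted p = 1.52e-12). In siblings the bias was smaller, at 5.1, 4.45 and 4.98 and 30.8 and 26.1 CPM (log2 -2.55 ± 0.11), and the difference between genotypes was -1.99 ± 0.19 (edgeR adjusted p = 2.52e-05). Of the gibberellin genes linked to stamen arrest in the ear, an1 (GRMZM2G081554), an ent-copalyl diphosphate synthase, and D8 (GRMZM2G144744), a DELLA repressor, were both higher in mutant ears, with log2 differences of -1.18 ± 0.06 and -0.70 ± 0.05 (edgeR adjusted p = 1.57e-09 and 1.54e-08).

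Jasmonate and lipoxygenase genes were mostly higher in the mutant tassel. Of 38 tested, 26 were higher in the mutant tassel and 6 in the mutant ear, with a median of 1.01, and their summed level was 2228 to 2297 CPM in tassels and 980 to 1000 CPM in ears. The list took in lipoxygenases by name, whatever their product. A single member, lox10 (GRMZM2G015419), a lipoxygenase of the 13-type that feeds green leaf volatiles, was read at 332, 324 and 346 CPM in tassels and at 2.34 and 2.52 CPM in ears (log2 7.10 ± 0.11, edgeR adjusted p = 3.74e-15). Likewise lox1 (GRMZM2G156861) was read at 616, 407 and 454 against 38.9 and 40.3 CPM (log2 3.63 ± 0.15, edgeR adjusted p = 6.47e-11). These 2 genes made up much of the sum in tassels. The allene oxide synthase aos2 (GRMZM2G002178), which takes the first step towards jasmonate after lipoxygenase, was read at 73, 102 and 75.6 against 9.98 and 11 CPM (log2 3.00 ± 0.14, edgeR adjusted p = 2.41e-10). TIFY25 (GRMZM2G116614), of the family that holds the JAZ repressors, followed at 14.9, 31.2 and 14.7 against 0.656 and 0.454 CPM, with the second tassel library above the other tassel libraries (log2 5.16 ± 0.45, edgeR adjusted p = 3.75e-07). In siblings 28 members were higher in tassel and 6 in ear, with a median of 1.36. For 5 of the 38 the difference between genotypes was called below 0 (8 without the second mutant tassel library), beside 4.91% of all genes tested. Among these 5 was lox10 (-1.62 ± 0.26, edgeR adjusted p = 0.00153). Its sibling tassels lay at 732, 665 and 618 CPM.

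Among the 6 members of this list higher in the mutant ear was lox6 (GRMZM2G040095), a further lipoxygenase, named for its small p for the difference between genotypes. It was ear-biased in mutants, at 33.7, 27.9 and 31.7 CPM in tassels and 55 and 59 CPM in ears (log2 -0.87 ± 0.07, edgeR adjusted p = 1.93e-07). In siblings the tassels were higher, at 81.3, 79.9 and 73.6 against 53.3 and 54.4 CPM (log2 0.54 ± 0.07, edgeR adjusted p = 1.58e-05). The ears of both genotypes lay close together, and the tassels differed by more than 2-fold.

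Genes that shape meristems and branches were the next group. Of 45 architecture genes tested, 20 were higher in the mutant tassel and 10 in the mutant ear, and 15 were not called. The share called was 66.7%, beside 40.2% of all genes tested and 1092 of the 2062 tested genes with a name. The trehalose phosphatase gene ra3 (GRMZM2G014729), which limits branching, was read at 66.2, 68.4 and 73.9 CPM in tassels and 25.2 and 24.4 CPM in ears (log2 1.49 ± 0.08, edgeR adjusted p = 3.13e-09). The SBP-box gene ub3 (GRMZM2G460544), which limits the number of tassel branches and ear rows, was read at 85.8, 101 and 97.7 against 39.4 and 41.2 CPM (log2 1.24 ± 0.07, edgeR adjusted p = 3.5e-09), whereas its paralogue ub2 (GRMZM2G160917) was not called (-0.13 ± 0.06, edgeR adjusted p = 0.119) unless the first mutant ear library was left out (-0.21, edgeR adjusted p = 0.0244). The bZIP gene FEA4 (GRMZM2G133331), a regulator of meristem size, was read at 47.4, 54.3 and 48.3 against 16.8 and 19 CPM (log2 1.48 ± 0.07, edgeR adjusted p = 7.81e-10). The LEAFY homologue zfl1 (GRMZM2G098813) and the AP2-type spikelet gene ids1 (GRMZM5G862109) were higher in tassels by 0.95 ± 0.08 and 0.82 ± 0.09 on the log2 scale (edgeR adjusted p = 1.23e-07 and 2.75e-06).

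The gene listed as MEI2-like (GRMZM2G085113), with terminal ear1 among its older symbols, which restrains leaf initiation, was read at 38.5, 39.4 and 36.6 CPM in mutant tassels and 7.07 and 7.21 CPM in mutant ears. The bias in the genotypes differed by less than its SE (log2 2.42 ± 0.08 in mutants and 2.41 ± 0.09 in siblings, edgeR adjusted p of the difference = 0.982). The WUSCHEL homologues were rare. Reads of wus2 (GRMZM2G028622) amounted to 1.46, 2.1 and 2.3 CPM in mutant tassels and 0 and 0.252 CPM in mutant ears. The ear libraries held 5 counts of it together, all in the second, and the tassels 108, a ratio of 16.2 with an exact 95% interval of 6.73 to 50.9 for counting error only. For wus1 (GRMZM2G047448) the log2 difference was 1.34 ± 0.36 (edgeR adjusted p = 0.00833). It lost its call without the second ear library (edgeR adjusted p = 0.0769). Of the auxin genes in the architecture list, the PINOID-type kinase gene bif2 (GRMZM2G171822) was tassel-biased by 1.18 ± 0.15, and the Aux/IAA genes BIF1 (GRMZM2G130953) and BIF4 (GRMZM5G864847) by 0.80 ± 0.09 and 0.48 ± 0.09 on the log2 scale (edgeR adjusted p = 2.32e-05, 3.88e-06 and 0.000727). The efflux carrier gene PIN1a (GRMZM2G098643) went the other way (-0.45 ± 0.09, edgeR adjusted p = 0.000712), and the auxin synthesis gene spi1 (GRMZM2G025222) was not called (-0.06 ± 0.12, edgeR adjusted p = 0.725).

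The liguleless genes act in the ligule region of the leaf, and some also at the base of tassel branches. The SBP-box gene lg1 (GRMZM2G036297) was read at 5.8, 6.2 and 7.04 CPM in tassels and 0.422 and 0.554 CPM in ears (log2 3.69 ± 0.23, edgeR adjusted p = 8.22e-09), and the TCP gene BAD1 (GRMZM2G110242), which sets branch angle, differed by 0.99 ± 0.18 (edgeR adjusted p = 0.000388). The bZIP gene lg2 (GRMZM2G060216) stood at 9.57, 11.3 and 10.5 CPM in tassels and 4.87 and 5.09 CPM in ears (log2 1.07 ± 0.13, edgeR adjusted p = 1.3e-05). In siblings it stood at 8.79, 8.57 and 10.0 and 14.6 and 11.8 CPM, so the ears were higher there (log2 -0.53 ± 0.12, edgeR adjusted p = 0.00187). The tassels of the genotypes overlapped, and the mutant ears were below all other libraries. The liguleless narrow gene lgn (GRMZM2G134382) was not called in mutants (-0.06 ± 0.10, edgeR adjusted p = 0.678).

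On the ear side of the architecture list, besides gt1 and Silky1, were tga1 (GRMZM2G101511), the SBP-box gene that frees the kernel from its glume, at 14.2, 10.7 and 14.5 against 59.7 and 54.3 CPM (log2 -2.11 ± 0.09, edgeR adjusted p = 1.35e-10), and fea3 (GRMZM2G166524), a receptor-like gene that limits meristem size, at 19, 18.3 and 19.6 against 34.5 and 34.1 CPM (log2 -0.85 ± 0.06, edgeR adjusted p = 8.73e-08). The spikelet meristem gene bd1 (GRMZM2G307119) differed by -0.62 ± 0.12 (edgeR adjusted p = 0.0011). Several well known regulators were not called. They included ra1 (GRMZM2G003927), a zinc finger gene that limits branching, at 6.25, 6.82 and 6.48 and 7.4 and 8.01 CPM (-0.24 ± 0.11, edgeR adjusted p = 0.096), the CLAVATA-type receptor gene fea2 (GRMZM2G104925; 0.16 ± 0.07, edgeR adjusted p = 0.0615, and 0.20 with an edgeR adjusted p of 0.0381 without the third tassel library), and BA1 (GRMZM2G397518), a bHLH gene needed for axillary meristems (0.11 ± 0.12, edgeR adjusted p = 0.492). Missing the threshold does not show that tassel and ear were alike in these genes.

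Among KNOX and BELL genes 4 of 10 tested were higher in the mutant tassel and 4 in the mutant ear. On the ear side were knox3 (GRMZM2G000743), at 49.4, 48.5 and 49.9 CPM in tassels and 116 and 119.9 CPM in ears (log2 -1.26 ± 0.05, edgeR adjusted p = 3.66e-11), knox8 (GRMZM2G135447; -1.13 ± 0.08, edgeR adjusted p = 4.42e-08) and gnarley1 (GRMZM2G452178; -0.78 ± 0.06, edgeR adjusted p = 8.84e-08). With kn1 on the tassel side was lg3 (GRMZM2G087741; 0.61 ± 0.07, edgeR adjusted p = 5.33e-06). The levels of knox3 in siblings, 49.7, 51.4 and 47.1 CPM in tassels and 118 and 117 CPM in ears, were close to those of mutants, unlike those of kn1. The number of KNOX and BELL genes higher in tassel was 2 without the first mutant ear library.

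YABBY genes were ear-biased, whereas the other families described beside them had calls both ways or few calls. Of 8 YABBY genes, which are active in young leaves and floral organs, 7 were higher in the mutant ear and 0 in the mutant tassel, with a median of -1.43 and a summed level of 69 to 77 CPM in tassels and 185 to 193 CPM in ears. Siblings had 7 and 0. The most abundant named member, yabby15 (GRMZM2G529859), lay at 35, 31.6 and 32.6 against 74.6 and 75.7 CPM, and yab14 (GRMZM2G005353) at 12.3, 10.3 and 11.1 against 45.5 and 46.9 CPM. Their log2 differences were -1.18 ± 0.06 and -2.04 ± 0.09 (edgeR adjusted p = 5.23e-10 and 1.86e-10). In the SBP-box family 7 of 22 were higher in ear and 5 in tassel. That is 54.5% called, beside 40.2% of all genes tested and 1092 of the 2062 tested genes with a name. The steepest on the ear side was sbp2 (GRMZM2G168229), at 3.6, 3.87 and 4.13 CPM in tassels and 32.6 and 29.3 CPM in ears (log2 -3.00 ± 0.12, edgeR adjusted p = 4.71e-11). Of 17 growth-regulating factors and partners 7 were higher in ear, GRF1 (GRMZM2G178261) among them (-1.04 ± 0.05, edgeR adjusted p = 2.69e-10), and 3 in tassel, with the coactivator GIF1 (GRMZM2G180246) at 759.6, 708 and 760.1 against 462 and 505 CPM (log2 0.62 ± 0.06, edgeR adjusted p = 5.47e-07). Of 6 florigen-like genes 2 were higher in ear and 0 in tassel, ZCN4 (GRMZM2G075081) the steeper of them at 0.957, 1.36 and 0.663 against 10.9 and 10.4 CPM (log2 -3.43 ± 0.19, edgeR adjusted p = 2.63e-09). Of 55 auxin genes 20 were higher in ear and 11 in tassel (56.4% called). Among them AUX14 (GRMZM2G077356) had the smallest p, at 7.38, 6.2 and 5.61 against 50.1 and 43 CPM (log2 -2.87 ± 0.10, edgeR adjusted p = 2.45e-11).

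Cytosolic ribosomal protein genes were higher together in the mutant tassel than in the mutant ear. Of 36 tested, 32 were higher in tassel and 0 in ear, with a median of 0.32, and their summed level was 9070 to 9131 CPM in tassels and 6977 to 7231 CPM in ears. In siblings 7 were higher in tassel and 5 in ear, with a median of 0.01. Over all genes tested, 5.9% had a called difference between genotypes above 0 and 4.91% below 0. For 27 of the 36 the difference between genotypes was called, all above 0, and without the first or the second sibling ear library the count was 16 and 17. An example is rps6-2 (GRMZM5G851698), at 512, 531 and 509.7 CPM in mutant tassels and 360.0 and 386 CPM in mutant ears (log2 0.47 ± 0.04, edgeR adjusted p = 8.62e-07). Its sibling levels were 501, 518 and 482 CPM in tassels and 495 and 469.9 CPM in ears. The mutant ear libraries were below every other library for this gene.

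Histone genes were ear-biased in both genotypes, less so in mutants. Of 14 tested, 12 were higher in the mutant ear and 0 in the mutant tassel (median -0.27), beside 13 and 0 in siblings (median -0.56), and the difference between genotypes was called for 8, all above 0, and for 4 without either sibling ear library. Over all genes tested, 5.9% had a called difference between genotypes above 0. The linker histone gene his1a (GRMZM2G401308) was the most abundant named histone gene, at 966, 997 and 1070.1 CPM in mutant tassels and 1427 and 1444 CPM in mutant ears (log2 -0.51 ± 0.05, edgeR adjusted p = 1.17e-06). Cell cycle and replication genes shared with histones the sign of the difference between genotypes, but not an ear bias in mutants. Of 45 tested, 13 were higher in the mutant tassel and 8 in the mutant ear (fewer in ear without the second mutant ear library), where siblings had 6 and 17. The share called in mutants was 46.7%, beside 40.2% of all genes tested and 1092 of the 2062 tested genes with a name. The difference between genotypes was called for 12 of these 45 genes, all above 0, beside 5.9% of all genes tested. This count of 12 moved widely as single libraries were left out. The origin recognition complex gene orc3 (GRMZM2G381822) was the steepest named one in tassel, at 71.2, 76.7 and 75.7 against 48.6 and 46.5 CPM (log2 0.65 ± 0.05, edgeR adjusted p = 2.29e-07).

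**Figure D3:**
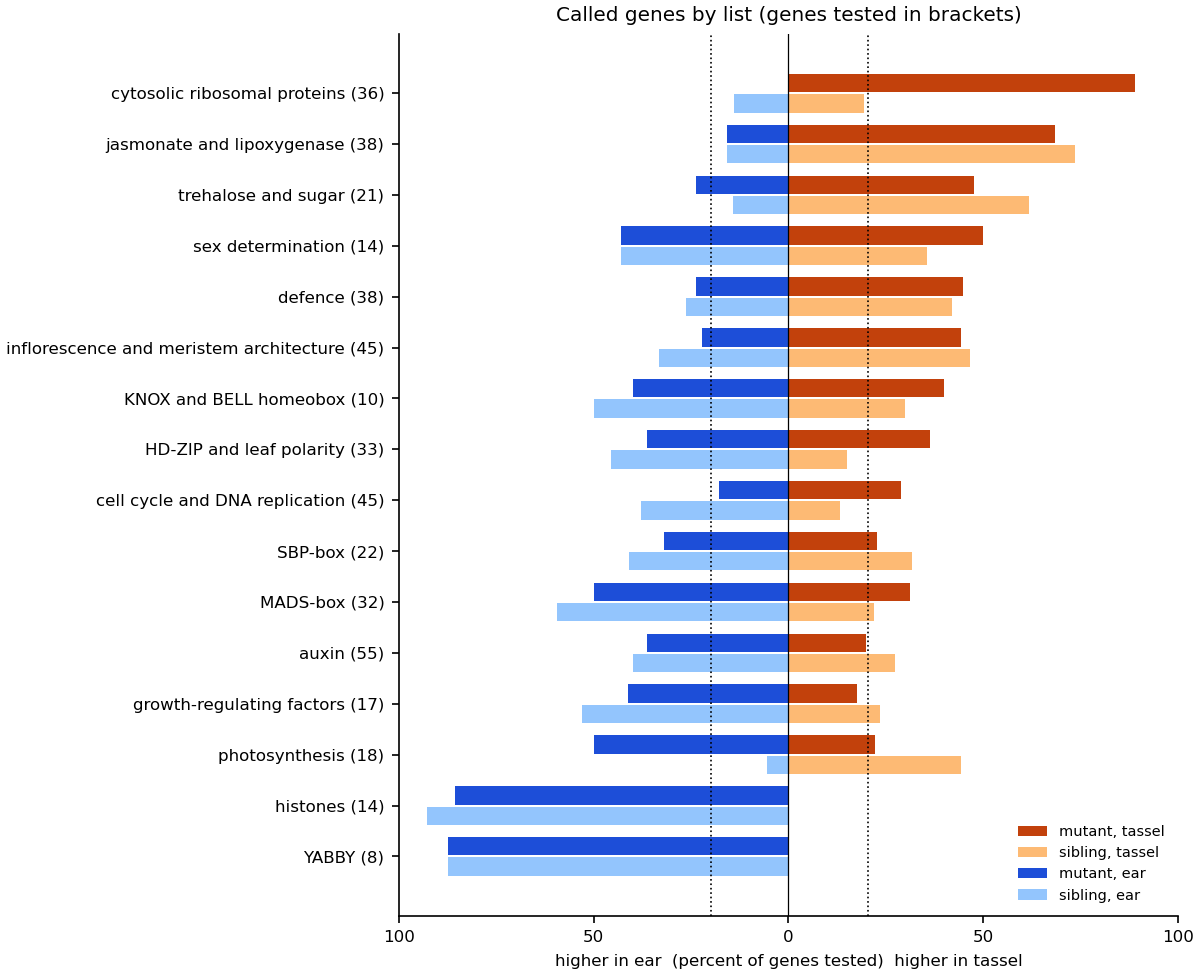
Share of the tested genes of 16 lists that were called higher in tassel (right, orange) or higher in ear (left, blue), as percent of the genes tested, in mutants (dark) and siblings (light). Dotted lines mark the shares over all genes in mutants, 20.4% and 19.9%. Ribosomal protein genes stand out to the right in mutants, YABBY genes and histones to the left in both genotypes, and photosynthesis genes change side.

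Photosynthesis genes had their calls on opposite sides in the genotypes. Of 18 tested, 9 were higher in the mutant ear and 4 in the mutant tassel (median -0.85), whereas siblings had 1 and 8 (median 0.18). The difference between genotypes was called below 0 for 7 of the 18, beside 4.91% of all genes tested. The light-harvesting gene lhcb5 (GRMZM2G149428) was read at 14.9, 16 and 13.4 CPM in mutant tassels and 26.2 and 24.2 CPM in mutant ears (log2 -0.78 ± 0.09, edgeR adjusted p = 5.42e-06), and siblings had 15.5, 14.9 and 13.7 and 15 and 13.5 CPM. Outside that pattern, the dikinase gene C4ppdkZm1 (GRMZM2G306345) was higher in mutant tassels at 35.8, 22.4 and 26.6 against 4.96 and 4.13 CPM (log2 2.63 ± 0.19, edgeR adjusted p = 4.46e-08). Summed over all 18 genes the level was 399 to 462 CPM in tassels and 289 to 343 CPM in ears, the opposite order to the median. The list also marks green tissue, such as husk or leaf left on a primordium, and its part in the other differences was not tested.

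The epidermis genes named here, of the HD-ZIP IV class and of wax synthesis, were higher in the mutant tassel. They were taken from lists with calls both ways, and epidermis genes were not counted as a class. In the wider list of HD-ZIP and leaf polarity genes 12 of 33 were higher in the mutant tassel and 12 in the mutant ear. Siblings had 5 and 15. The difference between genotypes was called for 8 of the 33, all above 0, beside 5.9% of all genes tested. Named by their smallest p were HDZIV6_OCL6 (GRMZM2G001289), at 105, 111 and 102 CPM in tassels and 53 and 59.8 CPM in ears (log2 0.91 ± 0.06, edgeR adjusted p = 1.3e-08), and ocl3 (GRMZM2G116658), at 77.3, 82.4 and 73.7 against 46.7 and 48.1 CPM (log2 0.71 ± 0.06, edgeR adjusted p = 1.1e-07). In siblings ocl3 lay at 66.4, 66.5 and 66.3 and 67.1 and 63.1 CPM, with no difference between organs called. Again the 2 mutant ear libraries stood below all others. The wax gene CER1 (GRMZM2G099097), active in the epidermis, showed the same order, at 194, 192 and 199 against 119 and 141 CPM in mutants (log2 0.59 ± 0.07, edgeR adjusted p = 5.51e-06) and 168, 171 and 161 against 165 and 144 CPM in siblings.

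**Figure D4:**
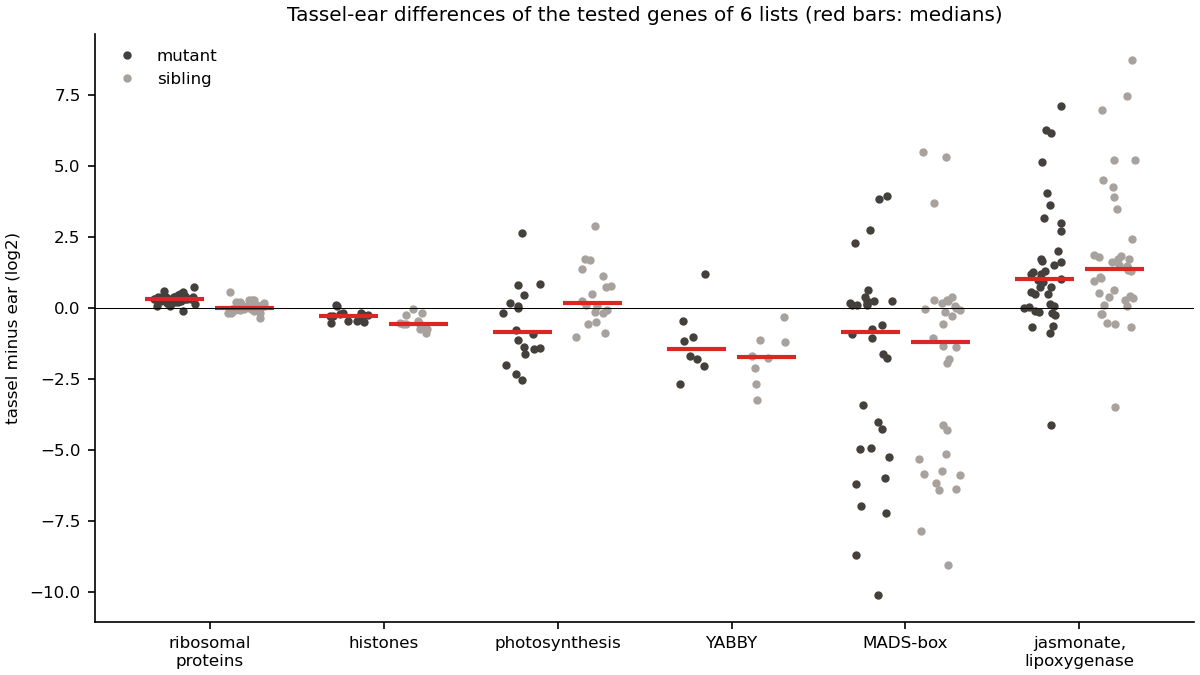
Log2 tassel minus ear differences of every tested gene in 6 lists, in mutants (dark points) and siblings (light points), with the median of each as a bar. Ribosomal protein genes centre at 0.32 in mutants and 0.01 in siblings, histones at -0.27 and -0.56, photosynthesis genes at -0.85 and 0.18, and MADS-box and jasmonate genes spread over the widest range.

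In the defence list 17 of 38 were higher in the mutant tassel and 9 in the mutant ear. That is 68.4% called, beside 40.2% of all genes tested and 1092 of the 2062 tested genes with a name. The smallest p belonged to an ear-biased gene, the transcription factor gene WRKY72 (GRMZM5G816457), at 31.3, 29.2 and 30.9 CPM in tassels and 95 and 103 CPM in ears (log2 -1.70 ± 0.06, edgeR adjusted p = 1.07e-11). The next were genes of benzoxazinoid synthesis, a pathway of chemical defence in young maize tissue. The glucosyltransferase gene bx9 (GRMZM2G161335) was read at 49.3, 57.1 and 45.9 against 7.96 and 5.34 CPM (log2 2.92 ± 0.13, edgeR adjusted p = 1.72e-10), and the cytochrome P450 gene BX5 (GRMZM2G063756) at 903, 845 and 831 against 449.8 and 477 CPM (log2 0.89 ± 0.05, edgeR adjusted p = 7.41e-09). For BX5 the bias was 1.64 ± 0.06 in siblings, and the difference between genotypes was -0.75 ± 0.08 (edgeR adjusted p = 3.87e-05). Another P450 of the pathway, BX3 (GRMZM2G167549), had a tassel bias of 0.17 ± 0.06 in mutants (edgeR adjusted p = 0.0253, lost when any mutant library other than the second tassel library was left out, and at 0.0617 with scaling by library totals alone and 0.0649 with a replicate block) and 0.99 ± 0.06 in siblings.

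Among the named genes with the smallest p for a difference between genotypes, m21 (GRMZM5G814279) was ear-biased in mutants at 2.93, 2.22 and 3.32 CPM in tassels and 29.1 and 26.7 CPM in ears (log2 -3.30 ± 0.13, edgeR adjusted p = 4.25e-11). Siblings had 3.15, 2.68 and 3.02 and 2.45 and 2.72 CPM, with no difference called, so the mutant ears alone were high. Under the name psb29 (GRMZM2G033885), a gene of photosystem II formation, mutants had 2.82, 2.96 and 1.58 CPM in tassels and 7.49 and 7.46 CPM in ears and siblings 4.39, 4.61 and 4.18 and 1.23 and 1.47 CPM, an order that turned round (log2 -1.62 ± 0.19 and 1.69 ± 0.24; difference -3.31 ± 0.31, edgeR adjusted p = 1.67e-05). The cytochrome P450 gene CYP78A53 (GRMZM2G092823) had 42.6, 44.8 and 45.9 against 102 and 114 CPM in mutants and 54.5, 54.6 and 54 against 60.9 and 49.9 CPM in siblings. The mutant ears were again apart from the other 3 groups. In m1 (GRMZM2G010669) it was the sibling ears, at 10.5 and 8.59 CPM, that stood apart from mutant ears at 1.08 and 0.605 CPM and from all tassels.

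**Figure D5:**
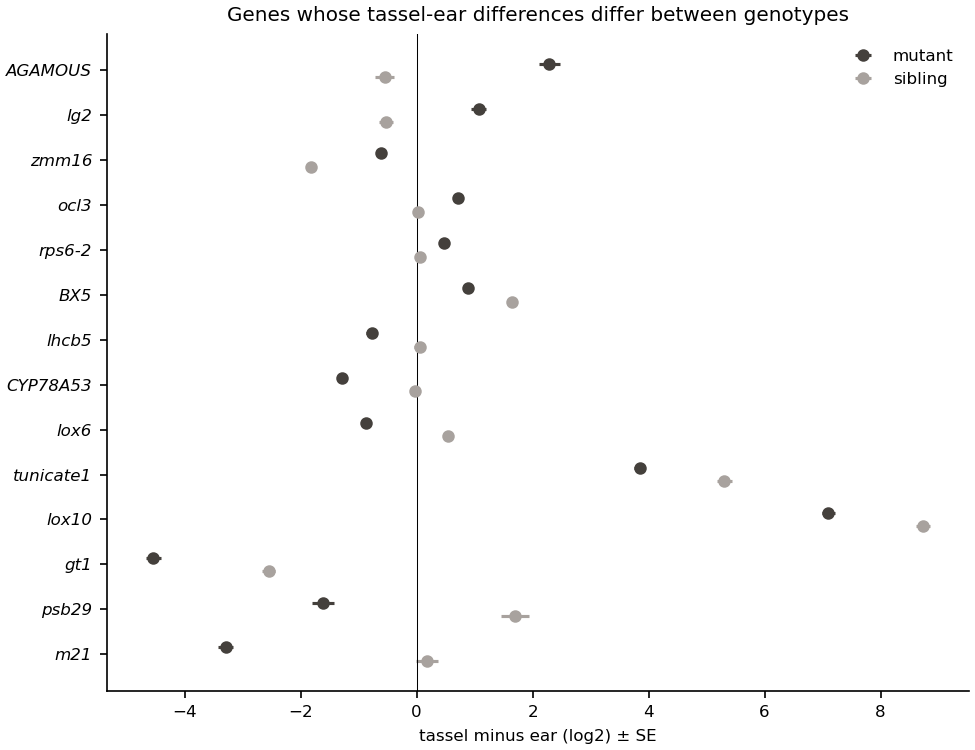
Log2 tassel minus ear difference ± SE in mutants (dark) and siblings (light) for 14 genes whose differences differed between genotypes (edgeR adjusted p under 0.05), ordered by the size of that difference. The 2 marks fall on opposite sides of 0 for AGAMOUS, lg2, lox6 and psb29, each called in both genotypes. They also do so for m21 and lhcb5, whose sibling differences (0.18 and 0.05) were not called. Among the genes with both marks on the same side are gt1, tunicate1, lox10 and zmm16.

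Among the other steep tassel-biased genes was kin1 (GRMZM2G158394), at 13.4, 14.3 and 13.2 CPM in mutant tassels, with 747 counts there and 2 counts in the 2 mutant ear libraries together, a ratio of 280 with an exact 95% interval of 77.3 to 2317. The beta-glucosidase gene glu1 (GRMZM2G016890) was read at 34.5, 27.8 and 37.3 against 1.5 and 2.42 CPM (log2 4.09 ± 0.19, edgeR adjusted p = 4.07e-10). The transcript of bHLH116 (GRMZM2G042895) was read at 1.07, 33.8 and 3.62 CPM in the mutant tassels and at 0 counts in the mutant ears, with the second tassel library far above the other 2. LOB15 (GRMZM2G060544), of the LOB domain family that acts at organ boundaries, also varied in that way, at 36.2, 88.5 and 24.1 CPM in mutant tassels and 12.1 and 8.82 CPM in mutant ears (log2 2.23 ± 0.48, edgeR adjusted p = 0.00168, and 1.51 without the second tassel library). On the ear side the oleosin gene ole1 (GRMZM2G337229) was read at 0.113, 0.0568 and 0.153 against 7.21 and 8.92 CPM (log2 -6.12 ± 0.30, edgeR adjusted p = 5.85e-10). Genes without a name were as steep: GRMZM2G099678 had 0 counts in the mutant ears and 21.7, 35.1 and 21.6 CPM in the mutant tassels, at least 357-fold higher, and GRMZM2G178894 had 0 counts in the mutant tassels and 6.6 and 6.3 CPM in the mutant ears, at least 118-fold higher, with 3 counts over the empty group as the floor.

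The remaining lists split between the organs. Their counts stand beside 20.4% of all genes called higher in the mutant tassel and 19.9% in the mutant ear. Of the tested genes with a name, 1092 of 2062 were called. In mutants 10 of 30 cytokinin genes were higher in tassel and 11 in ear, of 44 abscisic acid genes 11 and 15 (9 without the first mutant ear library), of 31 ethylene genes 10 and 7, of 41 cell wall genes 7 and 17, of 21 trehalose and sugar genes 10 and 5 (4 cell wall genes in tassel and 3 trehalose and sugar genes in ear without the second mutant ear library), of 8 gibberellin genes 3 and 4, and of 184 transcription factors listed by symbol 43 and 38. Markers of later flower tissue were few: 5 of 19 pollen and anther genes passed the filter, with a summed level of 477 to 481 CPM in tassels and 406 to 417 CPM in ears. The meiotic cohesin gene afd1 (GRMZM2G059037) was the steepest of them, at 46.4, 39.9 and 44.9 against 19.1 and 19.5 CPM (log2 1.18 ± 0.07, edgeR adjusted p = 5.59e-09). Heat shock genes, which can respond to handling, were higher in tassel for 9 of 22 and in ear for 3 (5 without the second mutant ear library), with summed levels of 4591 to 4863 CPM in tassels and 3501 to 4251 CPM in ears, and their part in the other differences was not tested.

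Other lists, most of them short, had calls in both directions apart from brassinosteroid genes. The shares over all genes were 20.4% higher in the mutant tassel and 19.9% in the mutant ear. Of 8 TCP genes 1 was higher in the mutant tassel and 5 in the mutant ear (3 without the second or without the third tassel library), and of 6 LOB domain genes 1 and 3. Of 7 brassinosteroid genes 2 were higher in tassel and 0 in ear, of 11 lignin and phenylpropanoid genes 1 and 3, of 10 cuticle and wax genes 4 and 1, and of 7 anthocyanin genes 4 and 1. Of 18 vascular genes 4 and 5 were called, of 11 circadian clock genes 3 and 5, and of 40 aquaporin and transporter genes 11 and 12. The silk and carpel list, which shares its MADS-box members with the list above, had 3 of 5 higher in tassel and 2 in ear, ZAG1 and zag2 being those in ear.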

How the data were processed

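RNA-seq libraries were made with an unstranded TruSeq kit, per the labels' protocols, so reads of a gene and of an overlapping antisense gene cannot be told apart. The deposited table holds the authors' raw counts per gene. The submitters' processing notes name CASAVA 1.8, TopHat 1.2.0, HTSeq and DESeq 1.4.1, and the genome build is not given in the sources used here. Symbols came from RefSeq (assembly Zm-B73-REFERENCE-NAM-5.0), which matched 18775 of 39656 IDs (47.3%), and paralogues may share reads.

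From the counts, CPM and tests were computed with edgeR 4.0.16 in R 4.3.3 (TMM factors, filterByExpr with a minimum count of 10 and a total of 15, quasi-likelihood F test). One fit took the 4 groups of tassel and ear libraries, and its contrasts were the mutant tassel-ear difference, the sibling one and the difference of both. The SE is the log2 difference divided by the square root of F. The series design calls the replicates biological, and intervals cover counting error only. Counts were also simulated with 200 genes changed in mutant tassel and all other genes equal in the 4 groups, with 21655 genes tested. The mutant comparison recovered 69.4% of 1.5-fold changes (68 genes) and 90% of 2-fold changes (90 genes), with 17 false calls. The difference between genotypes recovered 46.9% (46 genes) and 81% (81 genes), also with 17. In the data far more genes were called, so these rates of recovery and error do not carry over to the calls reported here.

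Genes were named by list and smallest p (up to 6 or up to 3 called members a list), by the 8 steepest named differences each way, and by the 8 smallest p each way for the difference between genotypes, at 5 CPM or more; the text gives part of these, picked with their values in view. The lists and the genes were chosen with earlier results of these data known. Alternatives were other scalings and filters, DESeq2 1.42.0, the 5 libraries of 1 genotype alone, a replicate block, and leaving out each library.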

Additional observations from a re-analysis of the deposited data

Results flagged for a closer look

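For 35 of the genes named here the tassel-ear difference of mutants and that of siblings differed by the test of the difference itself (edgeR, adjusted p under 0.05). Up to 8 genes each way were named for that same test, so their number is no result. Mutant primordia were shorter than sibling ones, so these differences cannot be told apart from ones of length or stage. Values are the mutant log2 difference minus the sibling one, so a value above 0 means more tassel-biased, or less ear-biased, in mutants. For 20 genes the call held in all 10 fits that left out 1 library. Among those above 0 were m1 (4.27), AGAMOUS (2.83), lg2 (1.6), zmm16 (1.21), ocl3 (0.69), CER1 (0.48), HDZIV6_OCL6 (0.42) and rps6-2 (0.42). Those below 0 were RIP (-4.21), m21 (-3.48), psb29 (-3.31), gt1 (-1.99), lox10 (-1.62), tunicate1 (-1.46), lox6 (-1.41), CYP78A53 (-1.26), lhcb5 (-0.83), BX3 (-0.82), BX5 (-0.75) and WRKY72 (-0.42).

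The other 15 lost their call in 1 or more of the 10 fits, and the highest adjusted p is given with the library left out. Lost in 1 fit each were MPI (-4.96; 0.0665 without the second sibling ear), orc3 (0.32; 0.0824 without that library) and fea3 (0.39; 0.0671 without the first sibling ear). AUX14 (-0.64) was lost in 4 fits (0.076 without the first mutant ear). Lost in 6 were ZAG1 (2.88; 0.097 without the second mutant tassel), zag2 (2.71; 0.179 without the first mutant tassel), zmm27 (1.44; 0.91 with 0.261 without that library), FEA4 (0.37; 0.175 without the first mutant ear), ub3 (0.36; 0.201 without the first sibling ear), an1 (-0.33; 0.143 without the second sibling ear) and ZCN4 (-1.12; 0.0775 without the second sibling ear). Lost in 7 were ra3 (-0.42; -0.26 with 0.241 without the first sibling ear), bde1 (-1.82; 0.0666 without the first sibling tassel) and LOB15 (-3.34; 0.173 without the second sibling ear). In 8 fits bx9 (-0.66) was lost, at -0.34 with 0.404 without the first mutant ear. The calls of ra3, ub3 and bx9 were also lost with a replicate block (adjusted p of 0.076, 0.0599 and 0.0561), those of ub3 and FEA4 where scaling used library totals alone (0.0631 and 0.0602), and that of FEA4 with DESeq2 (0.0636).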

How the results depend on the processing

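The mutant comparison gave 8850 calls and between 7036 (DESeq2) and 9122 (no filter beyond 1 count) under the other scalings, filters and tools, the sibling comparison 9825 and 7813 to 10585, and the difference between genotypes 2378 and 1790 to 3069. Without each library in turn they ran from 7014 to 8156, from 6799 to 8718 and from 982 to 2664. Where scaling used library totals alone, 43.8% of the mutant calls were higher in tassel, against 50.6%, and 38.4% of the calls for the difference between genotypes lay above 0, against 54.6%. The kn1 difference, 0.46, ran from 0.25 to 0.59 without each library. The labels do not say whether replicate numbers pair tassels with ears. The correlation of deviations was -0.129 and -0.134 for mutant numbers 1 and 2. With 2 ear libraries in a group their deviations are equal and opposite, so these values cannot exclude a pairing. With a replicate block the counts were 8096, 8987 and 1955, and the kn1 difference was 0.36. Of 120 results on named genes, 96 kept direction and call throughout, and the 5 reversals were in 3 genes not called in mutants. These were m1, at -0.0493 without the third mutant tassel library and -0.0312 without the second mutant ear library, in a range up to 0.80, lgn, from -0.11 to 0.00456, and spi1, from -0.19 to 0.0819, each over the left-out libraries; the cause was not tested. Groups with 5 counts or fewer, as for MADS4, zmm6 or wus2, limit folds to bounds or wide intervals.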

Other observations

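A set of genes was steeply tassel-biased in siblings and much less so in mutants, a pattern noticed after the values were seen. Of 316 genes whose sibling tassel-ear log2 difference was above 3, 92 had a called difference between genotypes, and for 91 of these the mutant difference was the smaller. Such genes were chosen by their sibling value, which by itself favours a smaller value in mutants. The 92 were also chosen by their called difference between genotypes. Both choices favour the counts and medians given next, which only describe the set, and no test was made of it. In 88 of the 92 the mean of the mutant ears was above that of the sibling ears, and in 85 the mean of the mutant tassels was below that of the sibling tassels. Their median level was 7.91 CPM in mutant tassels, 2.99 CPM in mutant ears, 15.2 CPM in sibling tassels and 0.606 CPM in sibling ears. On the ear side, of 149 genes with a sibling log2 difference below -3, 19 had a called difference between genotypes, 14 of them smaller in mutants.

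Of the 92 genes 15 carried a name, and 2 were picked from these after their values were seen. The gene listed as MPI (GRMZM2G028393), a proteinase inhibitor, was read at 23.8, 9.55 and 6.58 CPM in mutant tassels and 5.29 and 3.63 CPM in mutant ears, and at 19.3, 20.9 and 23.5 and 0.307 and 0.157 CPM in siblings. The mutant ears stood far above the sibling ears, and the first mutant tassel library above the other 2. Its log2 difference was 1.56 ± 0.41 in mutants (edgeR adjusted p = 0.00664, and 0.0616 without the second mutant ear library; 0.84 without the first tassel library) and 6.51 ± 0.71 in siblings. The gene listed as RIP (GRMZM2G119705) was read at 4.45, 7.05 and 2.96 CPM in mutant tassels, 0.984 and 1.16 CPM in mutant ears, 10.5, 13.7 and 12.3 CPM in sibling tassels and 0.123 and 0.157 CPM in sibling ears. The log2 difference was 2.15 ± 0.34 in mutants (edgeR adjusted p = 0.000126) and 6.36 ± 0.46 in siblings.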
